A study of Mus musculus with 18 samples.

Results

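The metalloproteinases and their tissue inhibitors were followed in the liver of mice without lysosomal acid lipase, with and without gene therapy. The genes were chosen by symbol from the deposited table of estimated counts: every row named Mmp, Timp, Adam or Adamts followed by a digit whose reads in the 18 livers added up to over 100. Of 80 rows with such a name, 47 passed, namely 17 Mmp, 4 Timp, 14 Adam and 12 Adamts genes, out of 35441 rows in the table and 14535 that passed the same minimum. Just above the minimum were Mmp24 with 114 reads, Mmp10 with 122 and Adam22 with 124, and just below it Mmp28 with 89.6, Adamts8 with 55 and Mmp16 with 47. The other 33 rows are not described further, and 12 of them had 0 reads in every mouse.

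Matrix metalloproteinases (MMPs) are zinc enzymes that cut collagens, elastin, proteoglycans and many other proteins outside the cell, and they are made as inactive precursors. Tissue inhibitors of metalloproteinases (TIMPs) bind the active site and block it. ADAM proteins sit in the membrane and many of them release ligands and receptors from the cell surface, whereas ADAMTS proteins are secreted and process collagen precursors, proteoglycans and von Willebrand factor. In damaged liver, macrophages, neutrophils, bile duct cells and activated stellate cells, the collagen-producing cells, are known sources of many of these proteins.

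All animals were male mice, and 3 livers were sequenced in each of 6 groups. Lipa-/- mice lack the fourth exon of Lipa, the gene of lysosomal acid lipase, through Cre-mediated deletion in a C57/BL6N background, and received no vector. Wild type (WT) littermates were untreated controls. rAAV8-treated Lipa-/- mice carry the same deletion and were injected in the tail vein, as young adults, with an intermediate dose of an adeno-associated vector that holds human LIPA with HA tags behind the hAAT promoter, which is active in hepatocytes. Livers were taken at 12- and 34-weeks post-injection, labelled as 3 and 8 months, and the untreated groups carry the same labels. A single untreated Lipa-/- mouse was still alive at the later time, and the others of that group had been sacrificed before it, at their endpoint. At most 1 of the 3 Lipa-/- livers labelled 8 months was thus taken at 34-weeks, and the labels do not say which, so that in every 34-weeks comparison with Lipa-/- livers the age at sampling differed as well. The labels also carry a study code, which differs between the time points, so that code and time cannot be told apart, and Lipa-/- mouse 5 at 12-weeks has a code of its own.

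Between 17527848 and 25833134 reads were assigned to genes per mouse, and 3 reads, taken here as the floor of detection, correspond to 0.0946 to 0.291 normalised read counts (CPM, scaled to library size). Floors and intervals cover counting error only. Lipa was at 202 to 323 CPM in WT mice, 16.7 to 33.4 in Lipa-/- mice and 29.1 to 37.0 in treated mice. The human transgene was at 523 to 2746 CPM in treated mice and at most 0.906 CPM in the other mice. The scaling factors of treated livers at 12-weeks (0.587 to 0.759) lay below those of all other livers (0.806 to 1.69). The 47 genes together took 0.0121% to 0.242% of the reads of a liver. A gene is said here to rise or fall when the adjusted p of edgeR's quasi-likelihood test, over all 14535 genes, is under 0.05 and the log2 fold change is over 1 in size.

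Genes of all 4 families, Mmp, Timp, Adam and Adamts, were higher in Lipa-/- than in WT livers. At 12-weeks, 31 of the 47 genes rose and 0 fell, where 29.3% of all tested genes passed, 20.2% upward and 9.07% downward. The rise took in 14 of 17 Mmp genes, all 4 Timp genes, 6 of 14 Adam genes and 7 of 12 Adamts genes. At 34-weeks, 34 rose and 1 fell, where 36.3% of all genes passed, 20.5% upward and 15.7% downward: 14 Mmp, 4 Timp, 7 Adam and 9 Adamts genes rose, and Adamts13 fell. In these bulk samples, more cells of a type and more RNA per cell cannot be told apart. The median log2 fold change over the 47 genes was 1.98 at 12-weeks and 2.50 at 34-weeks (1.92 and 2.46 with genes that were at 0 in WT mice set at their lower bound), against 0.02 and -0.03 over all genes. These counts lean on the choice of genes, since 24 of the 47 would not have reached 100 reads in the 6 WT livers alone. Among the 23 that did, 14 rose at 12-weeks, and 15 rose and 1 fell at 34-weeks. The share of all genes with this minimum in WT livers was not counted, so that these counts have no like background.

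**Figure D1:**
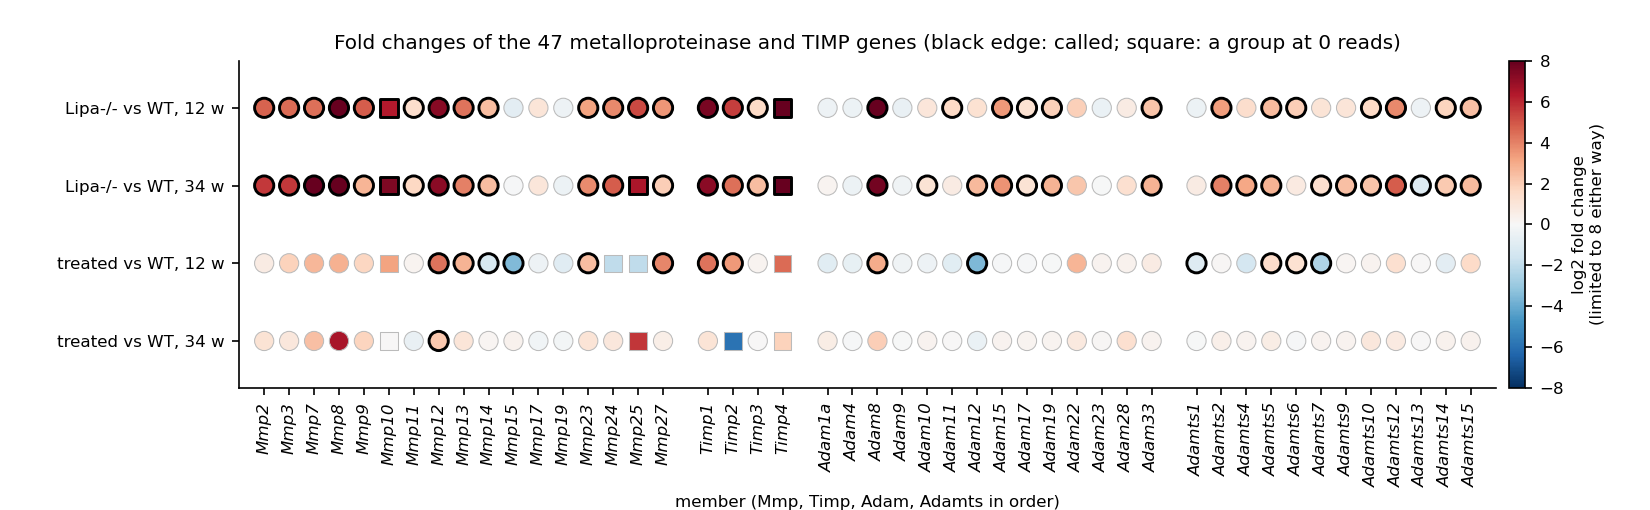
Log2 fold change (colour, limited to 8 either way) of each of the 47 genes (columns) in Lipa-/- and in treated Lipa-/- livers against WT livers at 12- and 34-weeks (rows), 3 mice a group. Black edges mark genes that passed the test and squares mark comparisons with a group at 0 reads, whose fitted colour has no bound: most Mmp and Timp genes are dark red in both Lipa-/- rows, and Mmp12 alone has a black edge in treated livers at 34-weeks.

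Of the genes that rose in Lipa-/- livers, 29 did so at both time points. Adam11 and Adamts6 passed at 12-weeks only, and Adam10, Adam12, Adamts4, Adamts7 and Adamts9 at 34-weeks only, although the change of the difference between the time points passed the test for none of the 47. The 10 genes that passed in neither time point were Mmp15, Mmp17, Mmp19, Adam1a, Adam4, Adam9, Adam22, Adam23, Adam28 and Adamts1. At 12-weeks the values of Lipa-/- and WT mice did not overlap in 36 of the 47 genes, and at 34-weeks in 38, whereas this was so for 52.7% and 60.3% of all genes tested.

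The genes with the largest rise include a run of neighbours on chromosome 9. In GRCm39, the 10 genes Mmp13, Mmp12, Mmp1b, Mmp3, Mmp1a, Mmp10, Mmp8, Mmp27, Mmp20 and Mmp7 lie in this order within 427.1 kb (chr9:7272514-7699587), with 0 other protein-coding genes between them. Of these, 7 passed the read minimum and rose in Lipa-/- livers at both time points, but 6 of the 7, all but Mmp12, had under 100 reads in the 6 WT livers together and passed through the livers in which they were high, so that this count is a description. Mmp1a and Mmp1b had 0 reads in every mouse, and Mmp20 had 1 read in all.

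**Figure D2:**
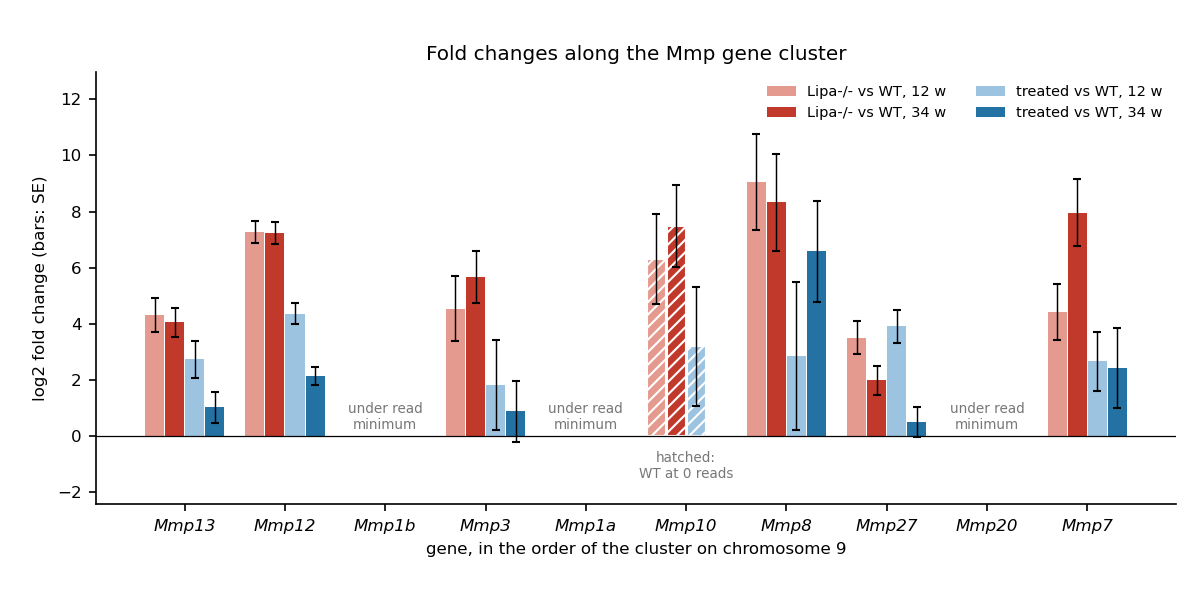
Log2 fold change against WT livers (vertical axis, bars with 1 SE of the edgeR fit over 3 mice a group) for the genes of the chromosome 9 cluster in their order along the chromosome, in Lipa-/- and treated livers at both times. The bars of Lipa-/- livers are above 0 for all 7 measured genes, and the hatched bars of Mmp10 are fitted values without a bound, since WT livers had 0 reads.

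Promoter windows from RefSeq (GRCm38.p6), from 250 bases before to 50 bases after the start of the gene, were found for 31 of the 47 genes, and for 23 of the 29 that rose at both times. The binding motif of AP-1, read as TGAGTCA or TGACTCA on either strand, occurred in the window of 6 of these 23 genes (26.1%), in 0 of the 8 other members and in 5.95% of 27025 genes with a window. The 6 genes were Mmp3, Mmp7, Mmp10, Mmp13 and, each at its second start only, Adam19 and Mmp12. A motif of PU.1, a factor of the myeloid lineage, read as GAGGAAGT or ACTTCCTC, occurred in 3 of the 23 (13%), namely Mmp7, Mmp8 and Mmp12, and in 3.69% of all genes. The CLEAR motif of lysosomal genes, GTCACGTG or CACGTGAC, occurred in 0 of the 23 and, outside them, in Adam10 (2.55% of all genes). The 23 genes were chosen by their rise in these same livers. Mmp3, Mmp7, Mmp8, Mmp10 and Mmp13 had under 100 reads in the 6 WT livers together and passed through the livers in which they were high. All of the 23 with an AP-1 or PU.1 match, except Adam19, are neighbours in the chromosome 9 cluster. The shares are thus a description and were not tested. A match is a run of letters and was not tested as a binding site. The stretches with an AP-1 match in 4 genes of the cluster, and with a PU.1 match in both cluster genes of the macrophage and neutrophil enzymes, are shown 5′ to 3′ on the plus strand, with the motif in capitals and with GRCm39 positions from an exact match of the sequence.
Mmp13, chr9:7272429-7272513: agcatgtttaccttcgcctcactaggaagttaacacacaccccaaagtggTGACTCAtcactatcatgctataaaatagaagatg
Mmp3, chr9:7445726-7445821: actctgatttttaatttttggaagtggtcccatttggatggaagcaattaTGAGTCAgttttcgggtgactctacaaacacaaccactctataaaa
Mmp10, chr9:7502230-7502336: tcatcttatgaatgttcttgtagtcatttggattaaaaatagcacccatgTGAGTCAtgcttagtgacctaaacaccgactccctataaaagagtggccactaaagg
Mmp7, chr9:7691978-7692084: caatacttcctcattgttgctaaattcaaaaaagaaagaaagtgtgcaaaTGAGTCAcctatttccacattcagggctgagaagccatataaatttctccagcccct
Mmp12, chr9:7344259-7344366: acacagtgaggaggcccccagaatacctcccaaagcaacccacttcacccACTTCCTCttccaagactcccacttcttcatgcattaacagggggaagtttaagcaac
Mmp8, chr9:7558180-7558266: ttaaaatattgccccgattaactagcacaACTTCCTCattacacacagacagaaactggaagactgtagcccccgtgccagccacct
In Mmp13 the match spans positions -35 to -29 from the start, in Mmp3 -46 to -40, and in Mmp10 and Mmp7 -63 to -57. In Mmp12 the PU.1 match spans -88 to -81 and in Mmp8 -221 to -214.

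Mmp12, the macrophage elastase, which cuts elastin, was the most abundant of the 47 genes in Lipa-/- livers on the TPM scale. At 12-weeks it was at 1.61, 1.15 and 1.41 CPM in WT mice, at 189, 210 and 249 CPM in Lipa-/- mice and at 42.0, 24.2 and 20.2 CPM in treated mice. At 34-weeks the values were 1.77, 2.09 and 2.02 CPM in WT, 425, 224 and 244 in Lipa-/- and 12.0, 7.98 and 6.19 in treated mice. The 3 kinds of mice did not overlap at either time point, with treated livers between the other two. The log2 fold change of Lipa-/- over WT was 7.27 ± 0.40 (SE, n = 3 and 3, adjusted p = 1.04e-08 with edgeR) at 12-weeks and 7.24 ± 0.40 (adjusted p = 1.24e-08 with edgeR) at 34-weeks. The annotation places Mmp1b over one end of Mmp12 on the opposite strand, and Mmp1b had 0 reads.

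The collagenases cut fibrillar collagen, and Mmp13 and Mmp8 were the 2 of this class with enough reads. Mmp13 was at 0.0536, 0.0478 and 0.105 CPM in WT and 1.21, 1.09 and 2.14 in Lipa-/- livers at 12-weeks, and at 0.0590, 0.197 and 0.273 against 4.35, 1.78 and 3.34 at 34-weeks. Its log2 fold changes were 4.33 ± 0.61 and 4.06 ± 0.53. Mmp8, the collagenase stored in neutrophils, had 1 read over the 3 WT livers at each time, against 4.54, 4.27 and 27.2 CPM in Lipa-/- livers at 12-weeks and 8.33, 4.95 and 6.32 CPM at 34-weeks. Lipa-/- mouse 9 at 12-weeks stood well above the other two in that group. The ratio of the summed reads, per normalised library, was 679 (exact 95% interval 122 to 26900) at 12-weeks and 452 (80.8 to 17900) at 34-weeks.

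The gelatinases Mmp2 and Mmp9 degrade unwound collagen and basement membrane. Mmp2 was at 0.857, 1.10 and 1.83 CPM in WT and 20.2, 26.6 and 54.7 in Lipa-/- livers at 12-weeks, and at 0.649, 1.77 and 1.28 against 75.6, 45.6 and 72.5 at 34-weeks. The groups were far apart, with log2 fold changes of 4.74 ± 0.50 and 5.67 ± 0.51. Mmp9, which neutrophils and macrophages carry, was at 0.375, 0.813 and 0.314 CPM in WT against 5.07, 4.08 and 35.8 in Lipa-/- livers at 12-weeks (log2 fold change 4.87 ± 1.12), so that mouse 9 again held the top value. At 34-weeks the values were 1.42, 1.02 and 0.545 against 9.43, 4.21 and 6.10 CPM (2.75 ± 1.01, adjusted p = 0.0330 with edgeR). This last rise no longer passed without any 1 of the WT mice 1, 2 and 3 (adjusted p = 0.0539, 0.0761 and 0.107 with edgeR) or without Lipa-/- mouse 4 (0.0929).

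Among the stromelysins, which have a broad range of matrix targets, Mmp3 had 1 read over the WT livers at 12-weeks and was at 0.426, 0.350 and 0.808 CPM in Lipa-/- livers, a ratio of 30.6 (5.19 to 1240). At 34-weeks it was at 0.118, 0.0788 and 0 CPM in WT against 6.72, 1.08 and 2.21 in Lipa-/- livers (log2 fold change 5.67 ± 0.93). Mmp10 had 0 reads in all WT livers and reached 0.213, 0.117 and 1.01 CPM in Lipa-/- livers at 12-weeks and 1.20, 0.773 and 1.03 CPM at 34-weeks. The mean of the Lipa-/- livers was 2.90-fold and 7.28-fold the mean floor of 3 reads per library in WT livers. At 12-weeks this mean leaned on mouse 9, with 25 reads against 6 and 3 in mice 5 and 8. Mouse 8, at 0.117 CPM, was below the floor of each WT liver (0.144 to 0.161 CPM). Mmp11 (stromelysin-3) rose less, by 1.42 ± 0.45 and 1.67 ± 0.44 on the log2 scale. The 12-weeks call of Mmp11 was lost without WT mouse 1 (adjusted p = 0.0551 with edgeR), WT mouse 3 (0.0604) or Lipa-/- mouse 9 (0.153).

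Mmp7 (matrilysin), an enzyme of epithelia such as bile ducts, was at 0, 0.287 and 0.262 CPM in WT and 3.23, 3.07 and 6.06 in Lipa-/- livers at 12-weeks (log2 fold change 4.43 ± 0.99). At 34-weeks, 3 reads over the WT livers stood against 14.4, 17.2 and 5.62 CPM in Lipa-/- livers, a ratio of 282 (96.4 to 1370). The groups did not overlap at either time. Mmp27, a neighbour of Mmp8, was at 0.322, 0.431 and 0.419 CPM in WT against 3.69, 5.59 and 4.24 in Lipa-/- livers at 12-weeks, and at 2.01, 0.749 and 0.311 against 4.41, 4.79 and 2.57 at 34-weeks. Its log2 fold changes were 3.51 ± 0.58 and 1.99 ± 0.53. Mmp23, a small enzyme held in the membrane by its amino end, rose by 3.23 ± 0.53 and 3.79 ± 0.53, with WT livers between 0.375 and 1.30 CPM and Lipa-/- livers between 5.59 and 13.9 CPM over both times.

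The membrane-type enzymes did not move as one. Mmp14, which activates the precursor of Mmp2, was at 18, 13.2 and 21.0 CPM in WT and 122, 95.8 and 65.1 in Lipa-/- livers at 12-weeks. At 34-weeks it was at 18.4, 32.4 and 28.1 against 158, 148 and 123 CPM, and the log2 fold change was 2.44 ± 0.31 at both times. Mmp15, the closest relative of Mmp14, was at 29.6, 17.1 and 42.9 CPM in WT and 20.4, 17.1 and 12.5 in Lipa-/- livers at 12-weeks (log2 fold change -0.84 ± 0.46, adjusted p = 0.157 with edgeR) and differed by -0.08 ± 0.45 at 34-weeks. Mmp24, first known from brain, had 1 read over the WT livers at 12-weeks and 2 at 34-weeks, with ratios of 18.6 (3.05 to 765) and 32.9 (8.81 to 276). Mmp25, an enzyme of leukocytes anchored by a lipid, had 1 read over the WT livers at 12-weeks (ratio 49.9, 8.66 to 2000) and 0 at 34-weeks, when it was at least 3.76-fold higher. Mmp17, anchored in the same way, did not pass (1.04 ± 0.52 and 0.98 ± 0.51, adjusted p = 0.122 with edgeR at both times). Nor did the secreted Mmp19, which was at 51.5, 53.3 and 61.4 CPM in WT and 43.1, 42.4 and 40.8 in Lipa-/- livers at 12-weeks (-0.40 ± 0.24) and differed by -0.44 ± 0.24 at 34-weeks.

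**Figure D3:**
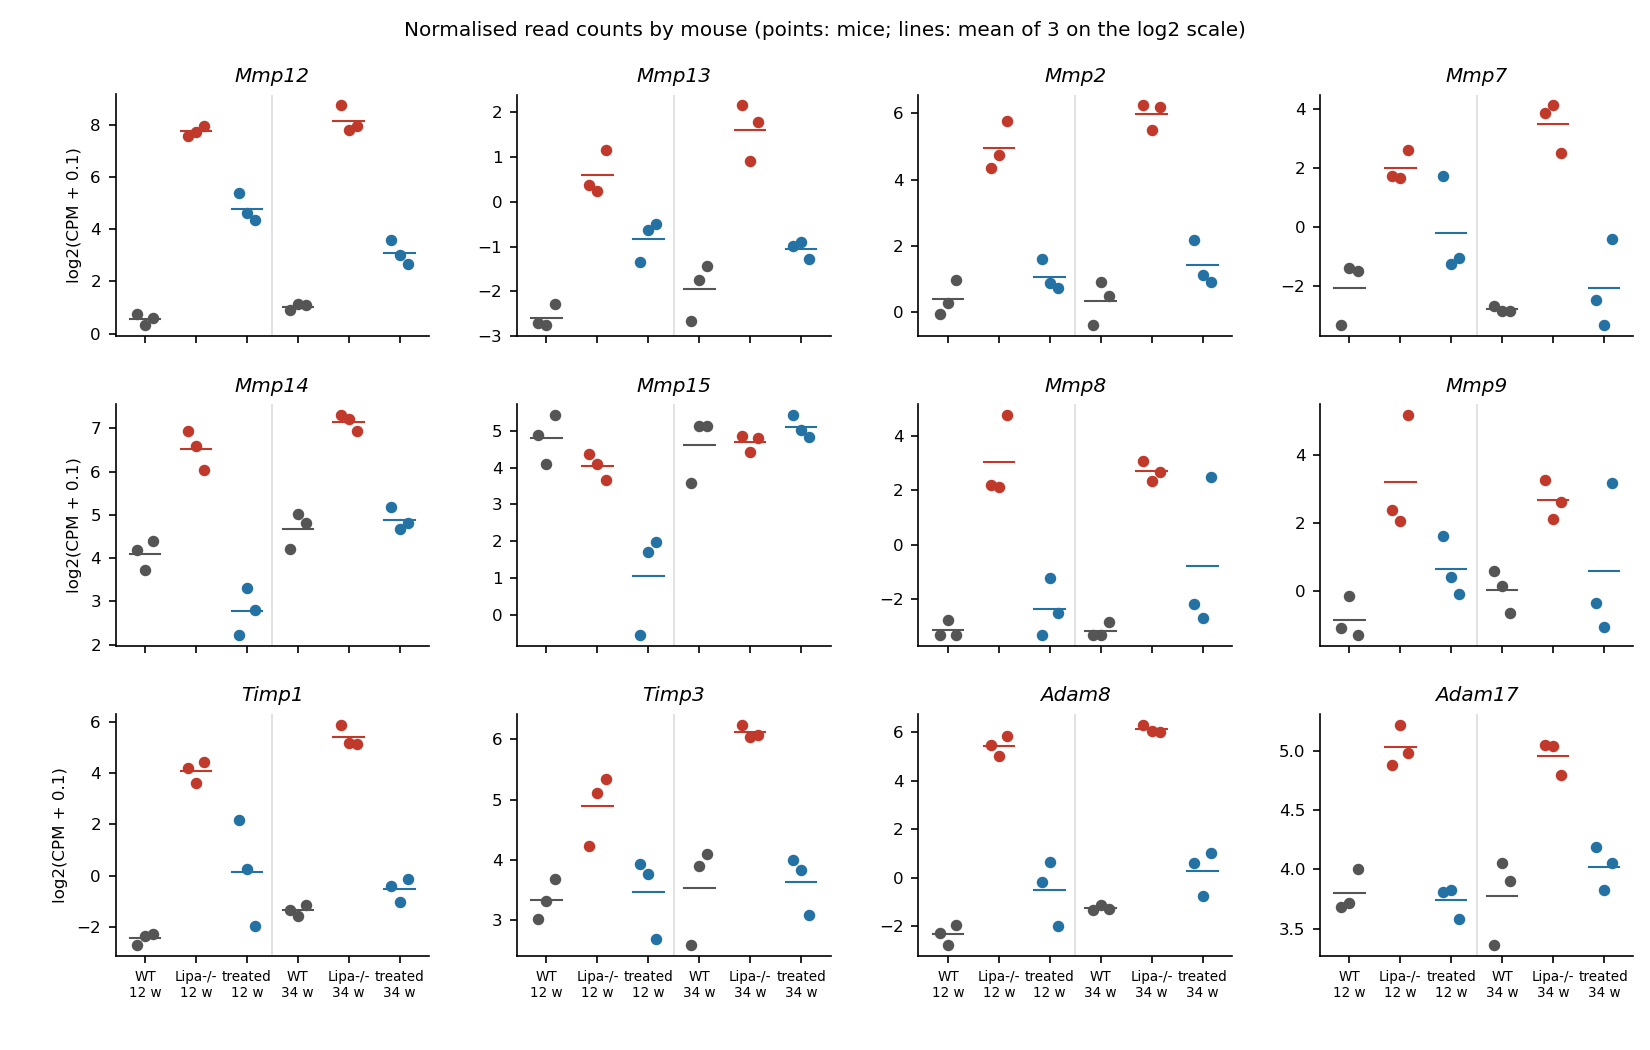
Normalised counts, as log2 of CPM plus 0.1, of 12 genes in each mouse (points) by group, with a line at the mean of 3 mice. For Mmp12, Timp1 and Adam8 all Lipa-/- mice lie above all WT mice at both times, Mmp15 is lowest in treated mice at 12-weeks, and single high points stand out for Mmp8 and Mmp9 in Lipa-/- mice at 12-weeks and treated mice at 34-weeks.

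The inhibitors rose with the enzymes. Timp1, a soluble inhibitor widely used as a marker of liver fibrosis (chrX:20736316-20740976, plus strand), was at 0.0536, 0.0957 and 0.105 CPM in WT and 18.4, 12.2 and 21.7 in Lipa-/- livers at 12-weeks. At 34-weeks it was at 0.295, 0.236 and 0.350 against 60.0, 36.4 and 35.5 CPM. The groups did not overlap, and the log2 fold changes were 7.59 ± 0.82 (adjusted p = 2.33e-06 with edgeR) and 7.20 ± 0.72 (adjusted p = 7.92e-07 with edgeR). Timp3, which binds to matrix and also inhibits Adam17 and several ADAMTS enzymes, was at 7.98, 9.90 and 12.8 CPM in WT against 18.7, 34.4 and 40.6 in Lipa-/- livers at 12-weeks, and at 5.96, 14.8 and 17.1 against 75.7, 65.4 and 67.2 at 34-weeks. Its rise was the smallest of the 4 inhibitors, 1.61 ± 0.39 and 2.46 ± 0.40. Timp4 had 0 reads in all 6 WT livers and was at 8.55, 3.81 and 14.1 CPM in Lipa-/- livers at 12-weeks and 13.2, 19.6 and 22.8 at 34-weeks, at least 57.4-fold and 135-fold higher than the floor.

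Timp2, which inhibits Mmp2 and also helps Mmp14 to activate it, was at 0.482, 0.335 and 0 CPM in WT and 5.78, 13 and 20.0 in Lipa-/- livers at 12-weeks. At 34-weeks the values were 0.708, 0 and 0.350 against 7.57, 7.34 and 6.25 CPM, with log2 fold changes of 5.54 ± 0.83 and 4.41 ± 0.79. These counts are uncertain. The deposited effective length of Timp2 was 457 to 501 bases, while the annotated transcripts run from 718 to 3825 bases, the gene was listed at 0 in 5 livers, and Cep295nl lies inside it on the same strand. Other genes that overlap a member on the opposite strand include Syn1 (Timp1), Syn3 (Timp3), Syn2 (Timp4), Mmp24os1 (Mmp24), Chchd10 (Mmp11), Tmem198b (Mmp19), Iah1 (Adam17), Tm2d2 (Adam9) and Tbc1d2b (Adamts7). Salmon was set to detect the library type by itself, and the type it found is not given in the sources used here.

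Levels of different genes were compared on the TPM scale, which accounts for gene length. In WT livers at 12-weeks the highest members were Mmp19 (15.6 ± 3.55 TPM, SD, n = 3), Adam9 (14.0 ± 4.62), Mmp14 and Mmp15. In Lipa-/- livers Mmp12 came first, with 160 ± 46.3 TPM at 12-weeks and 303 ± 170 TPM at 34-weeks, followed by Mmp14 (47 ± 12.1) and Timp1 (33.7 ± 10.2) at 12-weeks and by Timp1 (118 ± 58.2) and Mmp14 (99.2 ± 28.1) at 34-weeks. Mmp14 and Timp1 did not differ beyond the spread between mice at either time. Mmp12 alone made up 47.9% to 59.3% of the summed Mmp TPM in Lipa-/- livers and 0.864% to 1.74% in WT livers. It was 32.3% to 43.0% in treated livers at 12-weeks and 6.48% to 11.3% at 34-weeks.

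The summed Mmp level was 31.1 ± 9.01 TPM in WT and 286 ± 72.7 TPM in Lipa-/- livers at 12-weeks, and 44.5 ± 17.3 against 553 ± 250 TPM at 34-weeks. The summed Timp level was 2.57 ± 0.324 against 78.3 ± 31.1 TPM, and 4.16 ± 1.70 against 176 ± 68.6 TPM. The ratio of Mmp to Timp transcripts was therefore lower in Lipa-/- livers, 3.79 ± 0.496 against 12.0 ± 1.98 at 12-weeks and 3.10 ± 0.196 against 10.8 ± 2.10 at 34-weeks, with no overlap between mice. In treated livers it was 3.61 ± 0.911 at 12-weeks and 13.3 ± 1.94 at 34-weeks. Without Timp2 the ratio of treated livers at 12-weeks became 11.0 ± 8.19, with mice from 4.67 to 20.3, while Lipa-/- livers stayed below WT livers at 6.41 against 15.2, and at 3.60 against 14.0 at 34-weeks. These are sums of RNA levels, not enzyme activities, and were not tested.

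**Figure D4:**
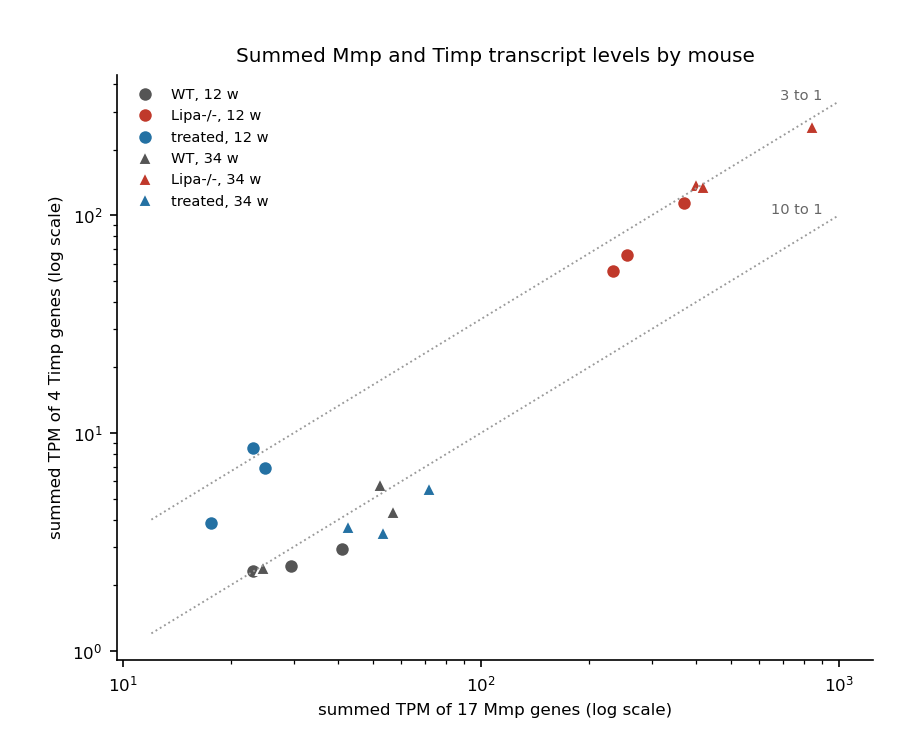
Summed TPM of the 17 Mmp genes (horizontal, log axis) against that of the 4 Timp genes (vertical, log axis) in each of the 18 mice, with dotted lines at ratios of 3 to 1 and 10 to 1. Both sums are highest in Lipa-/- mice, and these mice and treated mice at 12-weeks lie near the 3 to 1 line, while the other 9 mice, with ratios from 9.02 to 15.3, lie near or below the 10 to 1 line.

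Of the ADAM genes, Adam8, which is carried by leukocytes and cuts adhesion molecules, changed most (chr7:139558845-139572475, minus strand). It was at 0.107, 0.0478 and 0.157 CPM in WT and 44.4, 32.4 and 57.1 in Lipa-/- livers at 12-weeks, and at 0.295, 0.355 and 0.311 against 79.8, 66.9 and 64.8 at 34-weeks. The log2 fold change was 8.69 ± 0.62 (adjusted p = 5.04e-08 with edgeR) and 7.75 ± 0.55 (adjusted p = 5.69e-08 with edgeR). Adam15 rose from 1.50, 1.77 and 2.30 CPM to 15.9, 18.2 and 27.7 CPM at 12-weeks (3.47 ± 0.31), and by 3.59 ± 0.31 at 34-weeks. The sheddase of TNF, Adam17, was at 12.7, 13 and 16 CPM in WT against 29.4, 37.2 and 31.5 in Lipa-/- livers at 12-weeks (1.23 ± 0.20) and rose by 1.16 ± 0.20 at 34-weeks. Adam10, which cuts Notch receptors, was 0.96 ± 0.18 higher at 12-weeks, below the fold limit although its adjusted p was 0.00055 with edgeR, and rose by 1.15 ± 0.18 at 34-weeks. Without WT mouse 1, the 34-weeks log2 fold change of Adam17 was 0.99, just under the limit.

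Adam19 rose by 1.92 ± 0.43 and 2.76 ± 0.41 on the log2 scale. Adam33 rose by 2.25 ± 0.77 and 2.78 ± 0.74, but its 12-weeks call was lost without WT mouse 1 (adjusted p = 0.0594 with edgeR), WT mouse 2 (0.105), Lipa-/- mouse 8 (0.0590) or Lipa-/- mouse 5 (0.124). Adam12, a gene of activated stellate cells, went from 0.118, 0.512 and 0.311 CPM in WT to 2.65, 0.928 and 2.39 in Lipa-/- livers at 34-weeks (2.60 ± 0.60), with 1.21 ± 0.60 (adjusted p = 0.124 with edgeR) at 12-weeks. Adam11, which lacks protease activity, was at 8.47, 4.26 and 5.60 CPM in WT against 30.1, 14.7 and 10.8 at 12-weeks (1.60 ± 0.55), a call lost without WT mouse 2 (adjusted p = 0.0983 with edgeR), WT mouse 3 (0.0775) or Lipa-/- mouse 5 (0.154). Adam9, the most abundant ADAM of WT liver, was at 56.3, 53.2 and 73.8 CPM in WT and 29.4, 49.2 and 44.5 in Lipa-/- livers at 12-weeks (-0.57 ± 0.22). Adam23, Adam1a, Adam28, Adam4 and Adam22 passed in none of the comparisons within a time point, nor did Adam9.

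Among ADAMTS genes, Adamts2, which removes the amino-terminal propeptide of fibrillar procollagens, was at 2.36, 2.49 and 3.51 CPM in WT and 28.3, 24 and 31.7 in Lipa-/- livers at 12-weeks (3.33 ± 0.38). At 34-weeks it was at 1.83, 5.16 and 4.63 against 76.1, 48.2 and 66.5 CPM (4.02 ± 0.38). Adamts14, with the same function, rose by 1.77 ± 0.66 and 2.09 ± 0.63, and lost its 12-weeks call without WT mouse 1 (adjusted p = 0.0888 with edgeR), WT mouse 3 (0.151), Lipa-/- mouse 8 (0.0894) or Lipa-/- mouse 5 (0.104). Of the enzymes that cut versican and aggrecan, Adamts5 rose by 2.56 ± 0.39 and 2.77 ± 0.39 and Adamts15 by 2.38 ± 0.56 and 2.50 ± 0.48. Adamts4 (1.39 ± 0.85, then 3.12 ± 0.80) and Adamts9 (1.04 ± 0.47, then 2.40 ± 0.47) passed at 34-weeks only, and Adamts1 at neither time (-0.45 ± 0.31 and 0.66 ± 0.30).

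Adamts12, which cuts cartilage oligomeric matrix protein, rose by 3.85 ± 0.75 and 4.82 ± 0.69. Adamts7, its close relative, was 1.07 ± 0.46 higher at 12-weeks (adjusted p = 0.0786 with edgeR) and rose by 1.33 ± 0.46 at 34-weeks, a call lost without WT mouse 1 (adjusted p = 0.0873 with edgeR), WT mouse 3 (0.0667) or Lipa-/- mouse 4 (0.0643). Adamts10, a partner of fibrillin, rose by 1.62 ± 0.29 and 2.25 ± 0.30, and Adamts6 by 1.98 ± 0.43 at 12-weeks, with 0.69 ± 0.41 at 34-weeks. Adamts13 cuts von Willebrand factor and is made in the liver by stellate cells. It was at 3.16, 3.45 and 3.25 CPM in WT against 2.66, 3.11 and 1.74 in Lipa-/- livers at 12-weeks (-0.39 ± 0.28), and at 3.83, 4.41 and 3.93 against 2.18, 2.36 and 1.47 at 34-weeks, a log2 fold change of -1.02 ± 0.28 (adjusted p = 0.00625 with edgeR). All Lipa-/- mice lay below all WT mice at 34-weeks, but the change is at the fold limit: without WT mouse 2 it was -0.95 and without Lipa-/- mouse 6 it was -0.83. The call was lost in 9 of 17 alternatives, and on the TPM scale, at 1.28 ± 0.38 against 1.04 ± 0.38 (SD, n = 3 and 3), the difference was within the spread, with -0.29 by limma (adjusted p = 0.514).

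Marker sums of macrophages, neutrophils, stellate cells and cholangiocytes were higher along with the metalloproteinases in Lipa-/- livers, and their part in the results was not tested. Of 13 macrophage markers, 10 rose at each time, while Timd4 fell at both times and Clec4f at 34-weeks, both markers of resident Kupffer cells, and their summed level was 3771 to 8955 TPM in Lipa-/- livers against 96.1 to 312 TPM in WT livers. All 11 neutrophil markers rose at 12-weeks and 9 at 34-weeks, with sums of 479 to 6025 TPM against 3.89 to 15.2 TPM. The neutrophil markers Camp and Ly6g were at 0 in all 6 WT livers. Stellate cell markers, 12 in number, summed to 390 to 1043 TPM against 93.7 to 247 TPM, and 5 and 6 of them rose, while Lrat fell at both times and Reln at 34-weeks. The 7 cholangiocyte markers summed to 410 to 2629 TPM against 20.4 to 52.1 TPM, and 4 and 6 of them rose. Spp1 made up 93.2 to 99.2% of this sum in Lipa-/- livers, and the other 6 markers summed to 18.2 to 45.5 TPM against 4.12 to 12.0 TPM. Of 8 tested hepatocyte markers, 2 fell at 12-weeks and 5 at 34-weeks. Their summed level was 27008 to 52653 TPM in Lipa-/- livers, 36997 to 46590 TPM in WT livers and 20447 to 53386 TPM in treated livers.

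**Figure D5:**
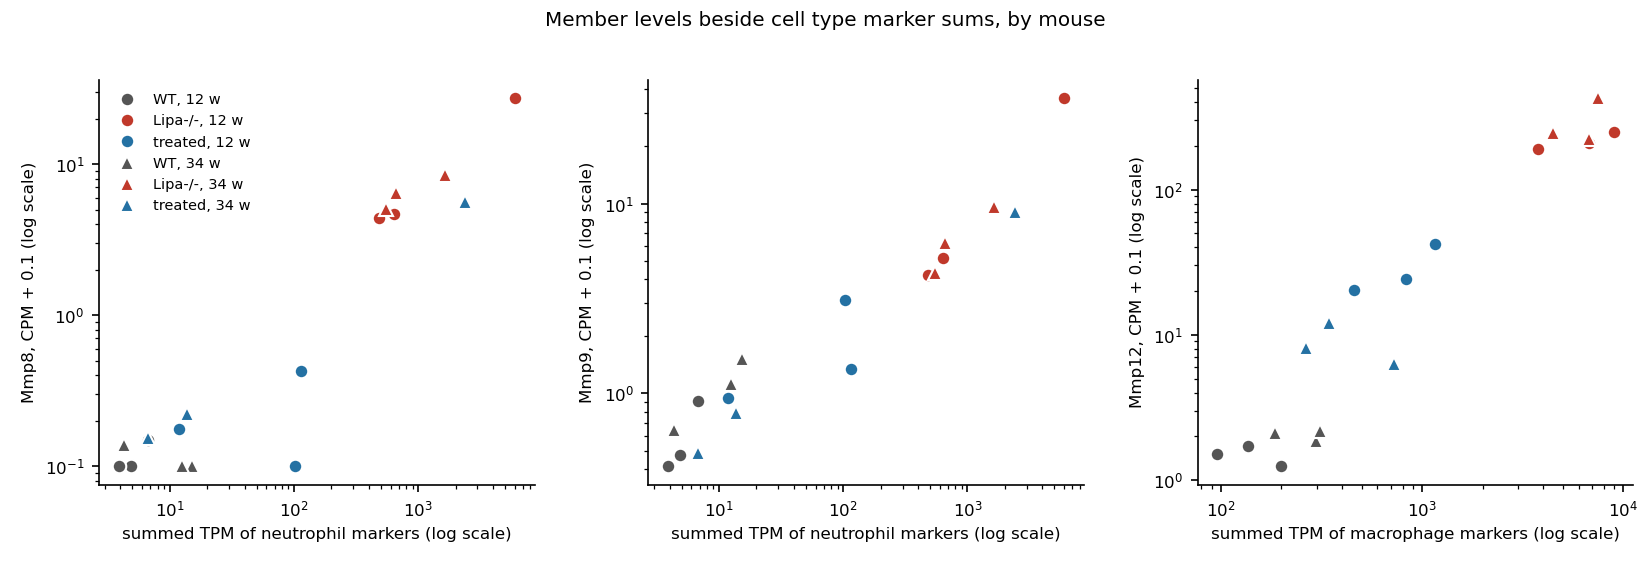
Mmp8 and Mmp9 against the summed neutrophil markers, and Mmp12 against the summed macrophage markers, in each mouse (points), with CPM plus 0.1 on vertical and TPM on horizontal log axes. Lipa-/- mice lie at the upper right in all panels, and treated mouse 12 at 34-weeks, with a neutrophil sum of 2400 TPM, lies among them for Mmp8 and Mmp9, while the other 2 mice of its group have 13.7 and 6.72 TPM.

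The neutrophil sum was uneven within groups. It was 6025 TPM in Lipa-/- mouse 9 at 12-weeks against 638 and 479 TPM in mice 5 and 8, and 2400 TPM in treated mouse 12 at 34-weeks. In the same 2 livers Mmp8, Mmp9 and Mmp25 had their highest value of the group: 673, 885 and 48 reads in Lipa-/- mouse 9, and 142, 229 and 18 reads in treated mouse 12. This was not particular to these genes. Lipa-/- mouse 9 also held its group's highest Mmp2 (54.7 CPM), Mmp12 (249), Timp1 (21.7), macrophage sum (8955 TPM) and cholangiocyte sum (2372 TPM). Mmp14 (65.1 CPM) and Mmp15 (12.5) were lowest there. Treated mouse 12 had the highest Timp1 (0.817 CPM) and macrophage sum (726 TPM) of its group, but the lowest Mmp12 (6.19 CPM). Without Lipa-/- mouse 9, 29 of the 47 genes were called between Lipa-/- and WT livers at 12-weeks instead of 31. Mmp10 (122 reads in all, 25 in this mouse) and Mmp25 (134 and 48) were then under the read minimum and not tested. Of the genes still tested, Mmp11 lost its call and another gene gained one.

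In treated livers at 12-weeks, 9 of the 47 genes were above WT livers and 5 were below. This is a share of 29.8%, where 25.6% of all genes passed in either direction (13.6% higher and 12.0% lower), and the median log2 fold change was 0.22 (0.19 with bounds), against 0.06 over all genes. Both counts lean on single mice: without treated mouse 10, 11 of the 47 and 1799 of all genes passed in place of 14 and 3714, and without WT mouse 3, 12 and 1633. The genes above WT were Mmp12, Mmp13, Mmp23, Mmp27, Timp1, Timp2, Adam8, Adamts5 and Adamts6, and those below were Mmp14, Mmp15, Adam12, Adamts1 and Adamts7. In 21 genes the 2 groups did not overlap (52.5% of all genes).

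Mmp12 was still 4.37 ± 0.36 above WT on the log2 scale in treated livers at 12-weeks (adjusted p = 5.29e-06 with edgeR). Timp1 was at 4.47, 1.09 and 0.153 CPM in treated livers, of which mouse 12 was close to the WT values, and was 4.32 ± 0.89 higher than WT (adjusted p = 0.00426 with edgeR). Mmp27 was at 9.23, 4.02 and 4.91 CPM, 3.92 ± 0.59 above WT and, on this scale, at the level of Lipa-/- livers, from which it differed by 0.41 ± 0.49 (adjusted p = 0.486 with edgeR). On the TPM scale its mean was lower in treated livers, 1.95 ± 0.589 against 3.34 ± 0.755 in Lipa-/- livers (SD, n = 3 and 3). Timp2 (3.48 ± 0.82), Mmp13 (2.75 ± 0.66), Mmp23 (2.48 ± 0.53), Adam8 (2.97 ± 0.74), Adamts5 (1.44 ± 0.39) and Adamts6 (1.21 ± 0.45) were also higher. The calls of 3 of these genes rested on single mice: Adam8 without treated mouse 11 had an adjusted p of 0.0778 with edgeR, Adamts5 without treated mouse 10 of 0.0724, and Adamts6 without any 1 of the 6 mice of 0.0771 to 0.135.

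The membrane-type enzymes Mmp14 and Mmp15 were below WT in treated livers at 12-weeks. Mmp15 was at 0.583, 3.15 and 3.83 CPM against 17.1 to 42.9 CPM in WT livers, a log2 fold change of -3.53 ± 0.52 (adjusted p = 0.00156 with edgeR). Mmp14 was at 4.57, 9.78 and 6.90 CPM against 13.2 to 21.0 CPM, a log2 fold change of -1.28 ± 0.31 (adjusted p = 0.00739 with edgeR). The groups did not overlap for either gene, and both calls held in all alternatives tried. Adamts7, at 0.486, 1.36 and 1.23 CPM, was lower too (-2.44 ± 0.53). Adam12 had 1 read over the treated livers, and WT livers were 14.9 times as high (2.40 to 618), a call lost without treated mouse 10 (adjusted p = 0.0513 with edgeR) or 11 (0.0518). Adamts1 was at the fold limit (-1.01 ± 0.32), and without treated mouse 10, WT mouse 2 or WT mouse 3 its adjusted p was 0.0671, 0.0635 and 0.0880 with edgeR. Mmp19 differed by -0.99 ± 0.25, just short of the limit.

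Against untreated Lipa-/- livers of the same time, which serve as the second control of treated livers, 31 of the 47 genes were lower at 12-weeks and 0 higher, where 41.5% of all genes passed, 25.3% lower and 16.2% higher. This count leans on the choice of genes as well, since 24 of the 47 had under 100 reads in the 6 WT livers together. Some passed through the Lipa-/- livers in which they were high, such as Timp4 (0 reads in WT and 2233 in Lipa-/- livers), so that the count is a description. The 31 were 13 Mmp, 4 Timp, 7 Adam and 7 Adamts genes. The log2 fold change was -2.91 ± 0.32 for Mmp12, -3.27 ± 0.59 for Timp1, -3.72 ± 0.33 for Mmp14, -4.06 ± 0.49 for Mmp2 and -5.72 ± 0.50 for Adam8. Mmp15 also fell (-2.68 ± 0.51), although it had not risen in Lipa-/- livers. Adam12 had 1 treated read, and Lipa-/- livers were 35.0 times as high (6.07 to 1400). Without Lipa-/- mouse 9, 23 genes were lower and Adam23 was higher, and Mmp10 and Mmp25 were under the read minimum and not tested. Log2 fold changes of calls lost were then -1.46 for Mmp9 (adjusted p = 0.188 with edgeR), -0.61 for Mmp11 (0.254), -1.21 for Mmp13 (0.0587), -2.28 for Mmp3 (0.0953), -1.29 for Mmp17 (0.0868), -1.60 for Timp2 (0.0677) and -2.04 for Adamts4 (0.138). Other mice decided some of them too: the call of Mmp17 was also lost without treated mouse 10, 11 or 12 or Lipa-/- mouse 8 (adjusted p of 0.056 to 0.1 with edgeR), that of Mmp9 without treated mouse 11 or 12, of Mmp11 without treated mouse 10 or 12, of Adamts4 without treated mouse 10 or 11 and of Timp2 without treated mouse 11. The values of the groups did not overlap in 34 genes (59.3% of all genes).

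At 34-weeks, Mmp12 was the single one of the 47 genes that differed between treated and WT livers (0.220% of all genes passed, 0.131% higher and 0.0894% lower). It was 2.15 ± 0.33 higher on the log2 scale (adjusted p = 0.00874 with edgeR), but not past the threshold without WT mouse 3 (adjusted p = 0.0840) or in a fit of these 2 groups alone (0.147). At an unadjusted p under 0.05, edgeR gave 8 genes, 7 higher and 1 lower, and no share over all genes was counted at this level. DESeq2 called 4, adding Adam8 and Mmp8 as higher and Timp2 as lower, where it called 84 of all genes. Adam8 was at 1.42, 0.492 and 1.91 CPM in treated livers, all above the WT livers (1.99 ± 0.54, adjusted p = 0.304 with edgeR). Mmp8 was at 0.122, 0.0546 and 5.52 CPM, with the highest value in the mouse with the large neutrophil sum, and Timp2 was listed at 0 in all 3 treated livers. Timp1, at 0.650, 0.382 and 0.817 CPM, was 1.08 ± 0.75 above WT, Mmp14 differed by 0.18 ± 0.29, Mmp15 by 0.33 ± 0.45 and Timp3 by 0.02 ± 0.39. In 10 genes the groups did not overlap (8.88% of all genes).

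Compared with Lipa-/- livers at 34-weeks, treated livers were lower in 28 genes (11 Mmp, 4 Timp, 5 Adam and 8 Adamts) and higher in Adamts13, where 31.5% of all genes passed, 18.6% lower and 12.9% higher. The read minimum, which some genes passed through the Lipa-/- livers in which they were high, bears on this count too, so that it is a description. Log2 fold changes were -5.09 ± 0.35 for Mmp12, -6.12 ± 0.66 for Timp1, -4.54 ± 0.48 for Mmp2, -5.75 ± 0.48 for Adam8 and -5.52 ± 0.96 for Mmp7. Timp4 had 1 read in treated livers, and Lipa-/- livers were 1250 times as high (224 to 49400). Mmp8 (-1.75 ± 0.99), Mmp9 (-0.97 ± 0.91) and Mmp25 (-0.83 ± 0.94) did not pass with treated mouse 12 in the group, and without that mouse 30 genes were called in place of 29. Adamts13, the 1 gene that was lower in Lipa-/- livers, was 1.08 ± 0.28 higher in treated livers, with 0.92 without treated mouse 11 and 0.89 without Lipa-/- mouse 6. That call was lost in 5 of 17 alternatives, with 0.50 by limma on TPM (adjusted p = 0.279). The groups did not overlap in 33 genes (55.9% of all genes).

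Between the time points, 0 of the 47 genes changed in WT livers (0.323% of all genes, 0.220% higher and 0.103% lower) and 0 in Lipa-/- livers (0.495%, 0.0344% higher and 0.461% lower) with edgeR. At an unadjusted p under 0.05 there were 3 genes in WT and 15 in Lipa-/- livers, all higher at 34-weeks. No share over all genes was counted at this level. DESeq2 and limma called 0 in WT livers, where they called 188 and 35 of all genes. In Lipa-/- livers DESeq2 called 6 (Mmp3, Adam19, Adamts1, Adamts2, Adamts9 and Adamts15) and limma on TPM called 5 (Mmp3, Mmp24, Adam19, Adamts12 and Adamts15). Of all 14535 genes, DESeq2 called 442 and limma 230 in this comparison. The change of the Lipa-/- difference from WT between the times passed for 0 genes with all 3 tools (0.0619% of all genes with edgeR, 0.0206% up and 0.0413% down, and 2 of the 47 at an unadjusted p under 0.05).

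Treated livers did change with time: 8 genes were higher and 4 lower at 34- than at 12-weeks, a share of 25.5% against 32.0% of all genes (17.5% higher and 14.5% lower). Mmp15 was 3.73 higher on the log2 scale, Adamts7 2.55, Mmp14 2.06, Adam11 1.80 and Adamts1 1.10, and Adam12, Mmp8 and Mmp25 were higher from 1 read, 7 reads and 0 reads over the livers at 12-weeks. Mmp27 (-2.09), Mmp12 (-1.72) and Mmp23 (-1.25) were lower, and Timp2 was at 0 in all 3 livers. Of these 12 calls, 5 rested on single mice. That of Adam11 was lost without mouse 9 at 34-weeks or mouse 11 or 12 at 12-weeks (adjusted p of 0.0629 to 0.111 with edgeR), and that of Adam12 without mouse 9 or 11 at 34-weeks or mouse 10 or 11 at 12-weeks (0.0565 to 0.129). That of Mmp23 was lost without any 1 mouse but mouse 12 at 12-weeks (0.0545 to 0.341), and those of Mmp8 and Mmp25 without mouse 12 at 34-weeks or any 1 mouse at 12-weeks (0.0579 to 0.692 and 0.0765 to 0.183). Without mouse 12 at 34-weeks the difference of Mmp8 turned to -0.725. The difference from WT itself changed for 6 of the 47 genes (18.4% of all genes, 8.58% up and 9.82% down). It moved upward for Adamts7, Mmp14 and Mmp15, which were below WT at 12-weeks. For Mmp12, Mmp27 and Timp2, which were above WT at 12-weeks, it moved downward.

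The genes around the enzymes were taken from lists of their activators, inhibitors, partners and substrates. In the plasminogen system, which activates many MMPs, Plau (5.00 and 4.25 on the log2 scale at 12- and 34-weeks), its receptor Plaur (6.07 and 6.35) and Plat (5.04 and 5.73) rose in Lipa-/- livers, 3 of 8 genes at 12-weeks. At 34-weeks 5 rose, Serpine2 (1.20) included, and plasminogen itself (Plg, -1.02) and Klkb1 (-1.72) fell. Of 11 tested genes of other MMP inhibitors and regulators, 3 rose at each time, the protease trap A2m, which had 0 reads in all WT livers and was at least 14.7-fold and 35.1-fold higher than the floor, Cd44 (4.30 and 3.56), which docks Mmp9 at the cell surface, and Lcn2 (9.51 and 6.23), which binds Mmp9. The membrane inhibitor Reck (-1.94 and -1.06) and Tfpi2 (-1.94 and -2.75) were lower at both times.

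Of 8 tested partners of Adam17 and Adam10, 5 rose at each time in Lipa-/- livers, among them Rhbdf2 (2.21 and 1.64), which carries Adam17 to the surface, and Tspan5 (2.98 and 3.14), which guides Adam10, while Tspan33 fell (-1.70 and -1.13). Of 18 tested ligands and receptors that are shed by these enzymes, 11 and 13 rose and 0 fell, with Tnf at 5.26 and 3.77, Cx3cl1 at 4.05 and 5.10 and Trem2 at 8.65 and 7.85. Of 6 ADAMTS-like genes and cofactors, 4 rose at each time, such as Adamtsl2 (1.97 and 2.69), and Papln fell (-2.70 and -2.75). Of 16 proteoglycan and matrix substrates, 12 rose and 1 fell at 12-weeks and 14 rose at 34-weeks, led by Col1a1 (5.42 and 6.28) and Vcan, which had 3 reads in WT livers at 12-weeks against 263 in Lipa-/- livers, a ratio of 65.4 (22.1 to 319), and a log2 fold change of 6.30 at 34-weeks.

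In treated livers, fewer genes of these lists passed. At 12-weeks, 8 matrix substrates were higher than in WT livers and 2 lower, with Col1a1 at 2.83 and with Vcan at 25 reads against 3, a ratio of 11.7 (3.58 to 60.6), and 2 plasminogen genes were higher (Plau 2.32 and Plaur 1.61) and 1 lower (Serpine2, -1.68). Furin, the enzyme that cuts the precursors of Mmp11 and the membrane-type enzymes, fell (-2.52), A2m passed with 7 reads against 0, at least 1.20-fold higher than the floor, Cd44 was 2.71 higher, and 3 of the shed proteins were higher and 2 lower. At 34-weeks, Plaur (1.83) and Trem2 (2.92) were higher than in WT livers and were the single genes of these 6 lists that passed. Macrophage marker sums in treated livers were 457 to 1158 TPM at 12-weeks and 264 to 726 TPM at 34-weeks, and 7 and 2 of these 13 markers were above WT.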

How the data were processed

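Liver RNA of 18 male mice was analysed from deposited gene tables, 3 mice in each of 6 groups given by the labels. Per the study's methods, the authors assigned reads with Salmon to Ensembl mouse transcripts (GRCm39) and summed them to genes with tximport in R 4.3.0. The estimated counts deposited by the authors are not normalised, and 19.4% of them are not whole. TPM values and effective gene lengths, in bases, were deposited by the authors from the same step. The authors' table of DESeq2 1.40.1 comparisons (log2 fold changes and p-values) was not used.

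Counts were rounded, filtered at over 100 reads in all, TMM-scaled and fitted with edgeR 4.0.16 (quasi-likelihood, 6 group means, R 4.3.3), with Benjamini-Hochberg adjustment over 14535 genes in each of 11 comparisons. Fold changes are on the log2 scale with the SE of the fit. P-values measure the spread between mice, and an exact permutation of 3 mice against 3 could not go under a p of 0.1. Comparisons with WT livers share the WT mice, and treated livers enter both of their comparisons. Library totals of 17527848 to 25833134 reads set the precision. Ratios of summed reads with 1 to 3 reads in a group carry exact 95% binomial intervals, and groups at 0 were set to a floor of 3 reads per library.

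All Mmp and Timp genes were described with values, and of the Adam and Adamts genes those called in at least 1 comparison within a time point, with the 5 most abundant others named. Adam22 was named as well after its values were seen. Genes, lists and markers were chosen with earlier results of these data known. Promoters came from RefSeq (GRCm38.p6), gene positions from a GRCm39 annotation. The edgeR fit was tested on simulated counts. Alternatives were DESeq2 1.42.0, limma 3.58.1 on log2(TPM + 0.1), RLE, upper quartile or total count scaling, length offsets, filters, thresholds, fits of 2 groups, the mouse number as a block, and each mouse left out. The Mmp to Timp ratio without Timp2 or Mmp12 was added after seeing the data. Some genes of the lists are not reported here.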

Additional observations from a re-analysis of the deposited data

Results flagged for a closer look

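The difference between treated and WT livers was not the same at the 2 time points for 6 of the 47 genes, by a test of the change itself (edgeR, adjusted over all genes). On the log2 scale, the difference moved upward by 3.855 ± 0.68 for Mmp15 (adjusted p = 0.0196 with edgeR), 2.706 ± 0.70 for Adamts7 (adjusted p = 0.0259) and 1.464 ± 0.42 for Mmp14 (adjusted p = 0.0304), all of which were below WT at 12-weeks. It moved downward, by -2.221 ± 0.47 for Mmp12 (adjusted p = 0.0236 with edgeR) and -3.409 ± 0.79 for Mmp27 (adjusted p = 0.0241), which were above WT at 12-weeks. The fitted change of Timp2, -9.365 (adjusted p = 0.0236 with edgeR), has no bound because the gene was listed at 0 in all treated livers at 34-weeks. The share of the 47 was 12.8%, and 18.4% of all genes passed, but both counts hang on single mice. Over all genes, 2675 passed with every mouse, 1 without treated mouse 9 at 34-weeks, 3 without WT mouse 3 at 12-weeks, 65 without WT mouse 1 at 12-weeks, 172 without WT mouse 1 at 34-weeks and 458 without treated mouse 10 at 12-weeks. The time points carry different study codes, and the parts of time and code cannot be told apart. None of the 47 passed without treated mouse 9 at 34-weeks or WT mouse 3 at 12-weeks, so that the count was then 0.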

How the results depend on the processing

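Of 159 gene results that passed, followed through 2731 alternatives, 2512 kept direction and call, 218 lost the call and 1 reversed. Leaving out each mouse gave 28 to 31 called genes for Lipa-/- against WT livers at 12-weeks and 31 to 34 at 34-weeks, 11 to 15 and 0 to 1 for treated against WT, 24 to 31 and 25 to 30 for treated against Lipa-/-, 0 to 1 between times in Lipa-/- (Adamts15, without mouse 6 at 34-weeks), 8 to 14 in treated livers, and 0 to 9 for the change of the treated difference. The read minimum was applied anew in each of these fits, and genes that fell under it counted as not called. The 0 of treated against WT at 34-weeks came without WT mouse 3. That of the change came without treated mouse 9 at 34-weeks or WT mouse 3 at 12-weeks, and 9 without treated mouse 12 at 12-weeks. DESeq2 gave 4 calls for treated against WT at 34-weeks (84 of all genes), and a fit of only these groups 0 (9 of all genes). Between times in Lipa-/- livers DESeq2 gave 6 (442 of all genes) and limma on TPM 5 (230 of all genes), against 0. Between times in treated livers, total counts gave 19 (16 higher and 3 lower), a fit of only these groups 7 and an adjusted p under 0.01 6, against 12. That threshold left 0 for the change of the treated difference. Total counts put the median of all tested genes, on the log2 scale, at 0.48 and 0.60 in Lipa-/- livers at 12- and 34-weeks, at -0.33 in treated livers at 12-weeks, at -1.05 and -0.51 against Lipa-/- livers and at 0.71 between times in treated livers, with splits of 36 to 0, 39 to 0 and 7 to 6 for the first 3. With the mouse number as a replicate block, 5 genes passed between times in treated livers and 0 in WT. The numbers are not given as pairs, same-numbered WT mice correlated at 0.11, -0.40 and 0.64, and 2 numbers recur in treated mice. Interactions and Lipa-/- time comparisons had no block because numbers do not recur enough. Adam15 turned from -0.09 to 1.091 in treated against WT livers at 12-weeks with length offsets. Mmp8 between times in treated livers ranged from -0.725 (without mouse 12 at 34-weeks) to 5.357. The cause of these changes was not tested. Without Mmp12, summed Mmp TPM was 126 and 250 in Lipa-/- livers and 13.8 in treated livers at 12-weeks. Without Timp1, summed Timp TPM was 44.6 and 58.2 in Lipa-/- livers. Low depth limits Mmp10, Mmp24, Mmp25 and Timp4, whose WT or treated livers had few or 0 reads.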
